A study of Rattus norvegicus with 23 samples.

Results

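Nppa and Nppb encode the 2 cardiac natriuretic peptides, atrial (ANP) and brain (BNP) natriuretic peptide. They were taken as the rows of the count tables with the rat Ensembl identifiers ENSRNOG00000008176 (Nppa) and ENSRNOG00000008141 (Nppb), 2 of 26405 gene rows. Both had counts in all 23 libraries, and both were kept by the filter on low counts.

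RNA from the heart apex of Lewis rats was sequenced 6 weeks after kidney transplantation, and every group had received a kidney. HD-HR (n = 6) were healthy recipients that carried the kidney of a healthy donor, and CD-HR (n = 6) were healthy recipients whose donor had chronic kidney disease (CKD). HD-CR (n = 5) were CKD recipients with a healthy kidney, while CD-CR (n = 6) had CKD in recipient and donor kidney alike. CKD was induced by partial ablation of the renal mass, followed by L-NNA at 200 mg/L, which blocks nitric oxide synthesis, and a diet with 6% NaCl. These were stopped once proteinuria reached 200 mg per 24 h, and CKD rats were used for transplantation when it was 100 mg per 24 h off treatment. The heart of a CKD recipient had therefore itself been exposed to the ablation, L-NNA and NaCl, while the heart in CD-HR had not. In CKD recipients, these exposures cannot be told apart from the kidney disease. Lewis rats are inbred, and the grafts were isografts. The labels used here give neither the age nor the sex of the rats.

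The total count in genes was 7391929 to 12444980 per library. Some features of the libraries bear on what follows. The deposited animal names begin with 12 or 13, a prefix that the labels do not explain: all 12 healthy recipients, 1 HD-CR and 1 CD-CR library have 13, and 4 HD-CR and 5 CD-CR libraries have 12. In CD-CR1 and HD-CR2 the 10 most abundant genes took only 48.8% and 51.4% of the counts, against 55.03 to 68.6% in the other libraries. CD-HR5 had the lowest total count, at 7391929. It also had the most non-unique alignments per counted read, 10.7, followed by 3.67 in CD-HR2. Its share of reads in no feature was the highest, 21.5%, followed by 18.2% in CD-CR1.

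Both peptides are made by heart muscle cells as longer precursors, cut and released into the blood. They bind the receptor guanylyl cyclase encoded by Npr1, which raises cyclic GMP, relaxes blood vessels and promotes the excretion of sodium and water in the kidney. They thereby counter the renin-angiotensin system. In the adult heart Nppa RNA is abundant in the atria and low in the healthy ventricle, to which the apex belongs. Both genes are known to be induced in the ventricle by stretch and pressure load, and are widely used as markers of cardiac load.

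The genes lie next to each other. In the RefSeq annotation of the rat assembly GRCr8 they sit on the same strand of chromosome 5 with 0 annotated genes between them. Since the 2 genes moved together across libraries (below), the 250 bases before each annotated transcription start are shown, from RefSeq on GRCr8, plus strand, at chr5:163711934-163712183 for Nppa and chr5:163699758-163700007 for Nppb. The counts were made on another build, Rnor_5.0, and these coordinates were used only to place the sequences. Capitals mark matches on either strand to the letters of 7 motifs. These were the MCAT motif CATTCC, the GATA-factor motif TGATAA and its variant AGATAA, the NKE motif AAGTG, the AP-1 motif TGACTCA, the core promoter motif TATAAA, and the CArG box.
Nppa: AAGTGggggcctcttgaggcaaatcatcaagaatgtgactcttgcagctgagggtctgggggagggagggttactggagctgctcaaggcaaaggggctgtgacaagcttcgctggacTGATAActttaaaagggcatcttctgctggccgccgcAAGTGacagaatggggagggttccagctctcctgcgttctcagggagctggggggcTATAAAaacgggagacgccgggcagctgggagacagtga
Nppb: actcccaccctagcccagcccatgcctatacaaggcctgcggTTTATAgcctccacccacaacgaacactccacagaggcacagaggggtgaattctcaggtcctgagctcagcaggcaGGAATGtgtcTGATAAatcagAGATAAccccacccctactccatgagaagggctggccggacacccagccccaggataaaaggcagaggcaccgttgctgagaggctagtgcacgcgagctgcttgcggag
The motif TGATAA was found once in each sequence, 132 to 127 bases before the start in Nppa and 121 to 116 bases before it in Nppb, and was present in 7.97% of 33469 rat promoters of that length. Nppa also held TATAAA 39 to 34 bases before the start (12.9% of promoters, at any position) and 2 matches to AAGTG (40.6%). Nppb held CATTCC on the minus strand 131 to 126 bases before the start (12.1%), AGATAA 110 to 105 bases before it (10.3%) and TATAAA on the minus strand. TGACTCA (4.05% of promoters) and the CArG box (1.50%), taken as CC and GG around a fixed run of A or T bases, had 0 matches in both sequences. Only exact matches were counted, so sites that differ from a motif by a base were not searched for and may be present. A match of letters is a description of the sequence and does not show binding.

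Nppa was the more variable gene. Its level is given in CPM, the reads of a gene relative to all reads in genes of its library after TMM scaling, which evens out differences in composition. It ran from 9.34 CPM in HD-HR4, with 83 reads, to 2266 CPM in CD-CR1, with 25797 reads, a 242-fold range. In HD-HR the lowest, median and highest libraries had 9.34, 60.1 and 93.8 CPM. In CD-HR the 6 libraries had 24.2, 56.9, 216, 367, 628 and 1333 CPM. In CD-HR, then, CD-HR4 and CD-HR6 lay within the range of HD-HR, and the 4 other libraries were above its highest library. In HD-CR the libraries had 122, 460, 603, 957 and 1110 CPM. In CD-CR the lowest, median and highest had 401, 1010 and 2266 CPM. Every library of a CKD recipient was thus above every HD-HR library, while CD-HR overlapped with each of the other groups. HD-HR averaged 52.5 ± 32.2 CPM of Nppa (SD, n = 6), CD-HR 438 ± 491 CPM (n = 6), HD-CR 650 ± 394 CPM (n = 5) and CD-CR 1217 ± 749 CPM (n = 6). In bulk tissue, fewer cells that make a transcript and less of it per cell cannot be told apart.

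Nppb had the same order of group means over a narrower range. It ran from 24.4 CPM in HD-HR4, with 217 reads, to 315 CPM in CD-CR2, with 3301 reads, a 12.9-fold range. In HD-HR the lowest, median and highest libraries had 24.4, 65.2 and 89.5 CPM. In CD-HR the 6 libraries had 57.4, 75.8, 102, 128, 163.9 and 264 CPM, and the 4 above the highest HD-HR library were the same 4 rats as for Nppa, CD-HR1, CD-HR2, CD-HR3 and CD-HR5. In HD-CR the libraries had 89.9, 145, 179, 199 and 235 CPM. In CD-CR the lowest, median and highest had 111, 156 and 315 CPM. HD-CR1 was the lowest CKD recipient for both genes, and for Nppb it exceeded the highest HD-HR library, at 89.5 CPM, only narrowly. HD-HR averaged 62.0 ± 27.4 CPM of Nppb (SD, n = 6), CD-HR 132 ± 74.9 CPM (n = 6), HD-CR 169.5 ± 55.1 CPM (n = 5) and CD-CR 179 ± 72.2 CPM (n = 6).

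**Figure D1:**
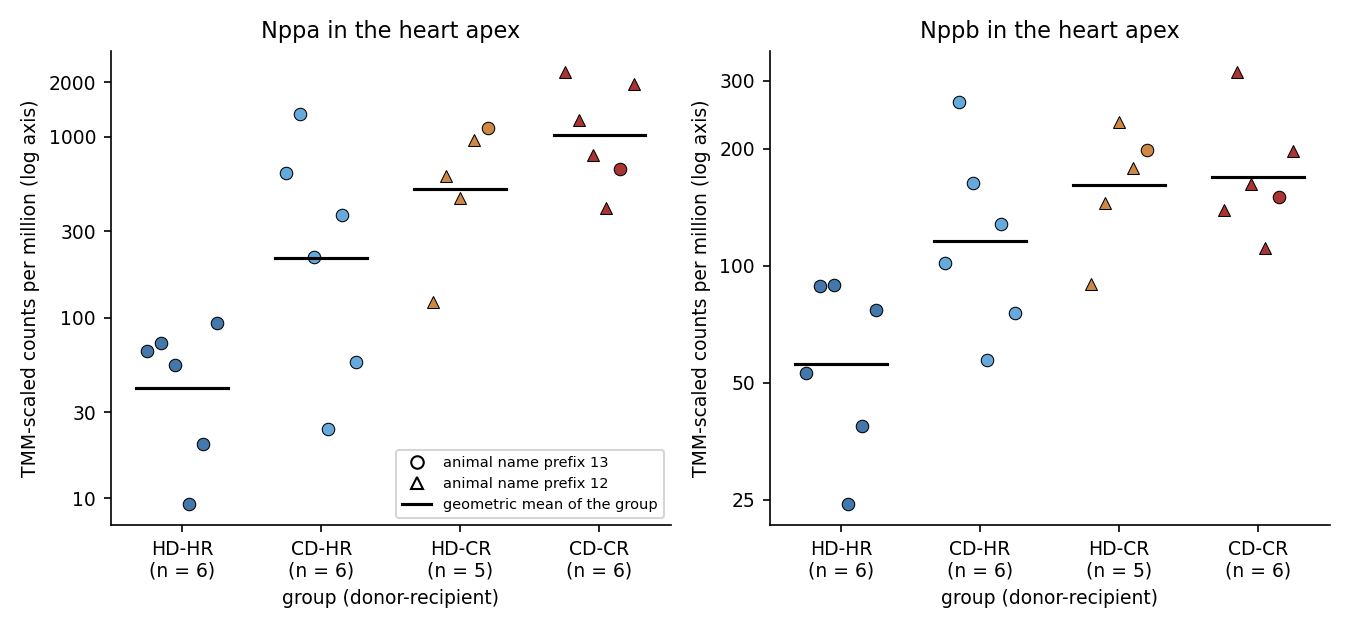
Level of Nppa (left) and Nppb (right) in each library, in TMM-scaled CPM on log axes, by group. Points are libraries, circles with the animal name prefix 13 and triangles with 12, and bars are geometric means. HD-HR stays at or below 93.8 CPM for Nppa and 89.5 CPM for Nppb, every CKD recipient lies above it, and CD-HR is spread from 24.2 to 1333 CPM for Nppa.

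The spread between rats of the same group was wide compared with other genes. The biological coefficient of variation that edgeR estimated within groups was 0.856 for Nppa and 0.430 for Nppb, against a median of 0.184 over the 11568 genes tested. Only 73 genes (0.631%) had a higher estimate than Nppa, and 453 (3.92%) a higher one than Nppb. Among the 112 genes within 1 log2 CPM of the mean level of Nppa, 0 had a higher estimate. On the log2 scale, the SD of Nppa was 1.28 in HD-HR, 2.16 in CD-HR, 1.27 in HD-CR and 0.96 in CD-CR, and that of Nppb was 0.75, 0.79, 0.53 and 0.51. Whether the spread differed between groups was not tested.

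The first question was how the hearts of CKD recipients differed from those of healthy recipients, with equal weight on healthy and CKD donors. Both genes rose. Nppa was 5.86-fold higher in CKD recipients, with a log2 fold change of 2.55 ± 0.57 (SE, adjusted p = 0.00942 by edgeR), and Nppb was 1.93-fold higher, with 0.95 ± 0.26 (adjusted p = 0.0248). Both members were thus called as higher, where 6.09% of the 11568 genes were, and 17 genes had a larger fitted log2 fold change than Nppa and 225 a larger one than Nppb. The median log2 fold change of all genes was -0.0052. Over single rats, the CKD recipient had more Nppa in 117 of 132 pairs of a CKD and a healthy recipient, and more Nppb in 113 of 132. Both calls held without each library in turn. They were lost with the name prefix as a covariate, where the log2 fold changes were 2.73 for Nppa (adjusted p = 0.124) and 0.96 for Nppb (adjusted p = 0.263). Among the 14 libraries of prefix 13 they were 2.52 and 0.97. These hold only 1 HD-CR and 1 CD-CR library, each assumed to vary like the healthy recipients. A missed threshold within prefix 13 therefore says nothing about a difference, here and in the later comparisons that include CKD recipients. With the covariate the sizes moved little, and the SE of Nppa grew from 0.57 to 0.88. In prefix 13 that SE was 0.98, and the values for the 2 donor kinds moved apart. With healthy donors Nppa went from 3.63 in all libraries to 4.44, and with CKD donors from 1.48 to 0.61. Nppb went from 1.45 to 1.73 and from 0.45 to 0.20. The prefix largely coincides with CKD of the recipient, so these values do not separate the 2.

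With a healthy donor kidney, HD-CR was compared with HD-HR, which asks how CKD and healthy recipients differed when both had received a healthy kidney. The libraries of the 2 groups did not overlap for either gene, with CKD recipients higher, as was so for 1.82% of the 11568 genes. The fitted change was 12.3-fold for Nppa, a log2 fold change of 3.63 ± 0.86 (SE, adjusted p = 0.0608 by edgeR), and 2.73-fold for Nppb, 1.45 ± 0.38 (adjusted p = 0.0774). Neither passed the threshold, and 0.406% of the genes were called as higher. For Nppa, 2 genes had a larger fitted log2 fold change. The call turned on the setting: Nppa passed by DESeq2 (adjusted p = 0.000932), by limma-voom (adjusted p = 0.0384), in a fit of these 2 groups alone (adjusted p = 0.0321) and without HD-CR1 (log2 3.89, adjusted p = 0.0455), and Nppb passed by DESeq2 (adjusted p = 0.019). Within prefix 13, where HD-CR5 alone stands for HD-CR, the log2 fold changes were 4.44 for Nppa and 1.73 for Nppb.

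With a CKD donor kidney, the fitted differences between CKD and healthy recipients were smaller and did not pass. CD-CR against CD-HR gave a log2 fold change of 1.48 ± 0.77 for Nppa (2.78-fold, adjusted p = 0.325 by edgeR) and 0.45 ± 0.36 for Nppb (1.36-fold, adjusted p = 0.548), with 1.09% of genes called as higher. CD-CR was above CD-HR in 31 of 36 pairs of rats for Nppa and in 26 of 36 for Nppb. CD-HR1 and CD-HR2, at 628 and 1333 CPM of Nppa, lay inside the range of CD-CR. The log2 fold change of Nppa was 2.24 without CD-HR2 and 1.21 without CD-CR1, the highest and lowest values with 1 library left out, 2.25 by limma-voom, and 0.61 in prefix 13 with CD-CR5 as the only CD-CR library. That of Nppb was 0.77 without CD-HR2, 0.29 without CD-HR4, 0.21 without CD-CR2 and 0.20 in prefix 13. That the recipient difference depended on the donor was tested as the donor by recipient interaction, which was -2.15 ± 1.10 for Nppa (unadjusted p = 0.0665) and -1.004 ± 0.53 for Nppb (unadjusted p = 0.0713) in edgeR. Both adjusted p-values were 1, and 0.00864% of genes were called as lower, so a difference between the responses was not shown. The interaction of Nppa was -1.39 without CD-HR2, -1.40 by limma-voom and -3.84 in prefix 13, and that of Nppb was -1.52 in prefix 13.

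Whether a CKD kidney alone acts on the heart of a healthy recipient was asked with CD-HR against HD-HR. The log2 fold change of Nppa fitted by edgeR was 3.05 ± 0.82 (8.30-fold), and 0 of 11568 genes had a larger one in that fit. It did not pass the adjustment over all genes, with an unadjusted p = 0.00143 and an adjusted p = 0.472 by edgeR. Nppb had 1.08 ± 0.37 (2.12-fold, unadjusted p = 0.00809, adjusted p = 0.494). In this comparison 0% of genes were called as higher and 0 of 11568 in either direction. By edgeR 879 genes had an unadjusted p under 0.05, a count that includes genes expected there without any difference. DESeq2 called 7 genes and limma-voom 0, and Nppa was past the threshold by DESeq2 (log2 3.06, adjusted p = 0.0447) while Nppb was not (adjusted p = 0.23). CD-HR was higher in 29 of 36 pairs of rats for Nppa and 30 of 36 for Nppb, and 4 of 6 CD-HR libraries were above the highest HD-HR library for each gene. Without CD-HR2 the log2 fold change of Nppa was 2.29, the lowest value with 1 library left out, and without CD-HR4 it was 3.30. By limma-voom it was 2.38, and that of Nppb was 1.05. The rank of Nppa by size holds for the edgeR fit of all libraries and was not computed without CD-HR2. By p-value in that fit, Nppa had rank 28. Leaving out CD-HR5, which had the most reads in no feature, gave 3.10 for Nppa and 1.09 for Nppb. All 12 libraries carry prefix 13, so the prefix does not differ between these groups.

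In CKD recipients neither gene passed the threshold for CKD of the donor. CD-CR against HD-CR gave 0.90 ± 0.80 for Nppa (1.87-fold, adjusted p = 0.789 by edgeR) and 0.08 ± 0.38 for Nppb (1.06-fold, adjusted p = 0.962), with 0% of genes called as higher. Among the 9 libraries of prefix 12 the values were 1.30 for Nppa and 0.18 for Nppb, and the single libraries of prefix 13, CD-CR5 and HD-CR5, went the other way, at -0.78 and -0.43. Averaged over recipients, donor CKD gave 1.98 ± 0.58 for Nppa (3.94-fold, adjusted p = 0.124) and 0.58 ± 0.27 for Nppb (1.50-fold, adjusted p = 0.359), with 0% called as higher. In prefix 13 these were 1.14 and 0.33. edgeR called 0 genes there, and 1477 had an unadjusted p under 0.05, again including genes expected without any difference. In the same comparison limma-voom called 0 genes and DESeq2 called 226, among them Nppa (adjusted p = 0.0199).

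CKD in donor and recipient against CKD in neither gave the largest difference for Nppa, and both genes rose. CD-CR exceeded HD-HR 23.1-fold for Nppa, a log2 fold change of 4.53 ± 0.88 (SE, adjusted p = 0.00717 by edgeR), and 2.89-fold for Nppb, 1.53 ± 0.37 (adjusted p = 0.0232), where 2.71% of genes were called as higher. The libraries of the 2 groups did not overlap for either gene, with CD-CR higher, as was so for 1.94% of genes, and 2 genes had a larger fitted log2 fold change than Nppa. The Nppa call held without each library in turn, with log2 fold changes of 4.27 to 4.78. The Nppb call was lost without HD-HR1, HD-HR4, HD-HR5, CD-CR2 or CD-CR6, with values of 1.29 to 1.50 and adjusted p-values of 0.0529 to 0.0634. With the prefix as a covariate the values were 4.74 for Nppa (adjusted p = 0.224) and 1.54 for Nppb (adjusted p = 0.301). Within prefix 13, where CD-CR5 alone stands for CD-CR, they were 3.66 and 1.30.

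The order of the group means was HD-HR, CD-HR, HD-CR and CD-CR for both genes, but no neighbours in that order passed the adjustment over all genes by edgeR. For Nppb the medians of the last 2 groups had the other order, 179 CPM in HD-CR and 156 CPM in CD-CR. CD-CR was above HD-CR in 14 of 30 pairs of rats for Nppb and in 22 of 30 for Nppa. CD-HR against HD-HR and CD-CR against HD-CR are given above. HD-CR against CD-HR, which sets a CKD recipient with a healthy kidney against a healthy recipient with a CKD kidney, gave 0.57 ± 0.79 for Nppa (1.49-fold, adjusted p = 0.697 by edgeR) and 0.36 ± 0.38 for Nppb (1.29-fold, adjusted p = 0.594), where 2.74% of genes were called as higher. Single libraries moved these values: that of Nppa was 1.33 without CD-HR2, 0.32 without CD-HR4, 0.34 without CD-HR6 and 0.29 without HD-CR5, and that of Nppb 0.69 without CD-HR2, 0.21 without CD-HR4 and 0.22 without HD-CR3. Nppa had 1.27 by limma-voom, and prefix 13 gave 1.38 for Nppa and 0.63 for Nppb. HD-CR was the higher in 20 of 30 pairs of rats for Nppa and 21 of 30 for Nppb. These comparisons share groups with those above, so their values are not independent of each other.

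**Figure D2:**
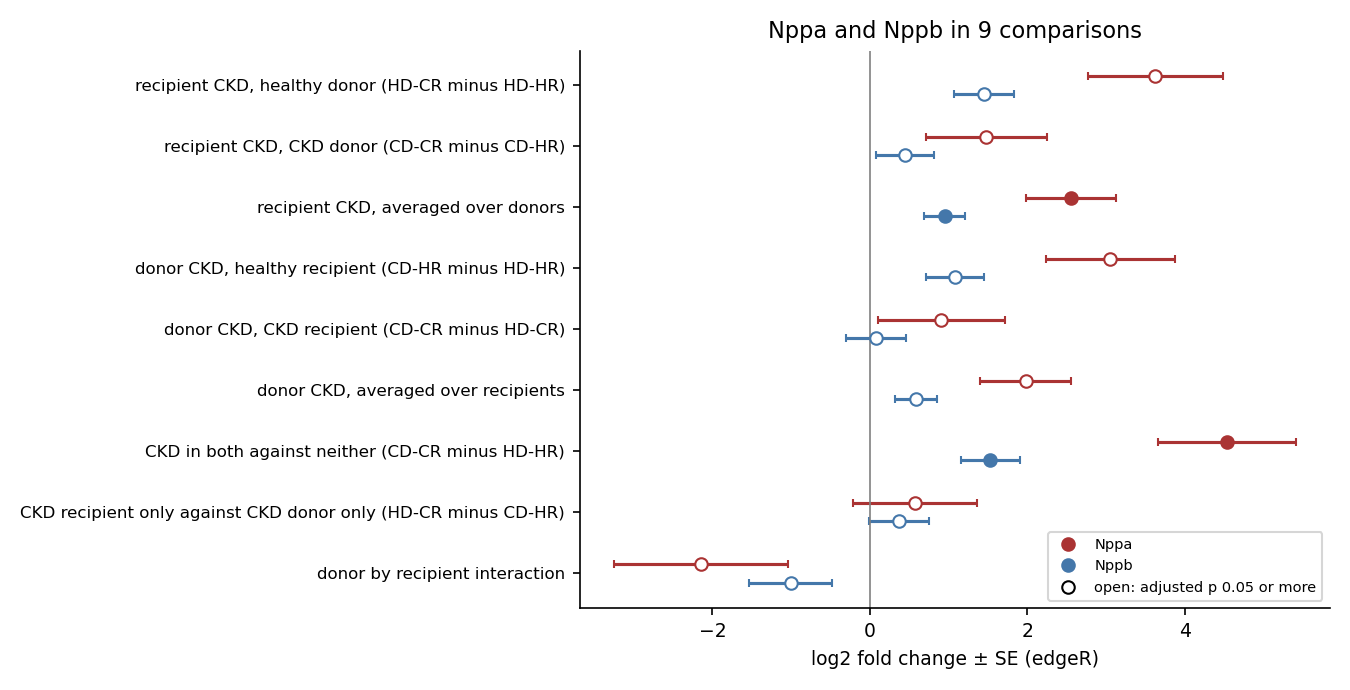
Fitted log2 fold change ± SE of Nppa (red) and Nppb (blue) in each of the 9 comparisons of 1 edgeR fit. Filled points passed an adjusted p under 0.05 and open points did not. Both genes are filled for recipient CKD averaged over donors and for CKD in both against neither, and the value of Nppa is farther from 0 than that of Nppb in every comparison.

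Nppa and Nppb moved together over the 23 libraries. Their log2 CPM had a Pearson correlation of 0.894 (permutation p = 1e-05, the smallest that 100000 resamples can give) and a Spearman correlation of 0.856 (permutation p = 1e-05). Without the 2 libraries farthest from the median of Nppa, the Pearson correlation was 0.834. Since the groups differ in both genes, the group means were also subtracted, which left a Pearson correlation of 0.784 (permutation p = 3e-05) and a Spearman correlation of 0.611 (permutation p = 0.00274). In the 12 healthy recipients the Pearson correlation was 0.905 (permutation p = 7e-05) and the Spearman 0.867 (permutation p = 0.00056). In the 11 CKD recipients they were 0.573 (permutation p = 0.0649) and 0.445 (permutation p = 0.174). By prefix, the Pearson correlation was 0.922 in the 14 libraries of prefix 13 (permutation p = 1e-05) and 0.560 in the 9 of prefix 12 (permutation p = 0.113), and whether these differ was not tested. In the 23 libraries a 10-fold higher Nppa went with a 2.26-fold higher Nppb by the slope of a straight line on the log2 scale.

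**Figure D3:**
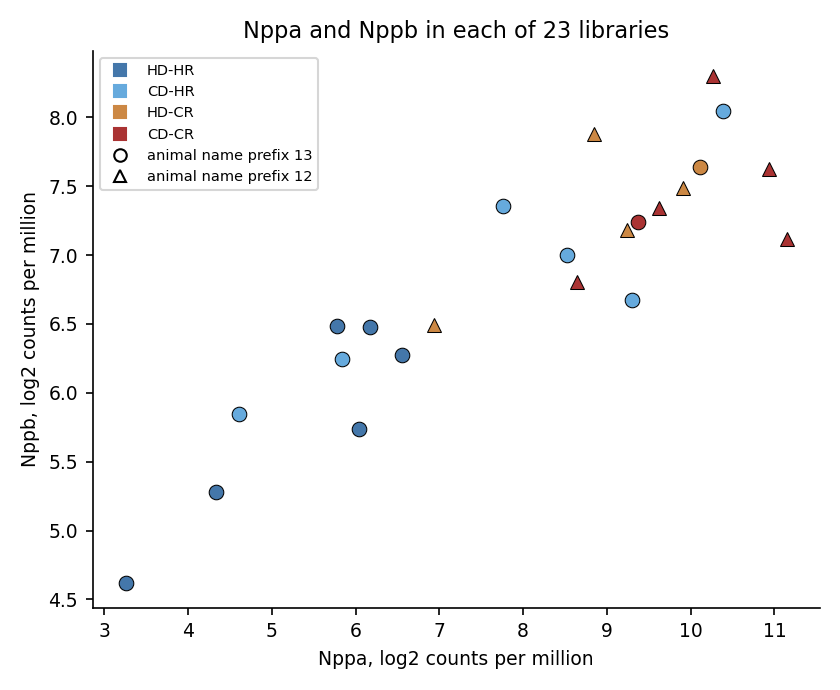
Nppa against Nppb in each of 23 libraries, both in log2 CPM. Colours give the group, circles the animal name prefix 13 and triangles 12. HD-HR4 is lowest for both genes, CD-HR4 and CD-HR6 lie among the HD-HR libraries, and CD-CR1 and CD-CR6 have the most Nppa without the most Nppb.

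The 2 genes differed between groups by unequal amounts. The number of Nppa reads per Nppb read, which does not depend on the scaling of a library, was compared between libraries but not read as a ratio of levels, since it is not per transcript length. In HD-HR the lowest, median and highest libraries had 0.382, 0.711 and 1.23 Nppa reads per Nppb read. In CD-HR they had 0.422, 2.09 and 6.17. In HD-CR the libraries had 1.36, 1.96, 4.16, 5.35 and 5.58. In CD-CR they had 3.60, 4.62 and 16.3, the highest in CD-CR1, followed by CD-CR6 with 9.92. Nppa reads thus outnumbered Nppb reads in 11 of 11 CKD recipients and in 6 of 12 healthy recipients, of which 4 were in CD-HR and 2 in HD-HR.

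The mean log2 ratio of Nppb to Nppa of HD-HR was 0.46 ± 0.68 (SD, n = 6), that of CD-HR -0.87 ± 1.55 (n = 6), that of HD-CR -1.67 ± 0.92 (n = 5) and that of CD-CR -2.59 ± 0.88 (n = 6). CKD of the recipient, averaged over donors, shifted it by -1.93 (exact permutation p = 0.000283, 2-sided like the others, Benjamini-Hochberg value 0.00227 over 8 comparisons). HD-CR against HD-HR shifted it by -2.13, and CD-CR against HD-HR by -3.06 (exact permutation p = 0.00216 each, adjusted 0.00577), and 0.00216 is the smallest p these group sizes allow. CKD of the donor, averaged over recipients, shifted it by -1.13 (exact permutation p = 0.0169, adjusted 0.0338), a call lost without HD-HR3, HD-HR4, HD-HR5, CD-HR1, CD-HR2, CD-HR5, HD-CR1, HD-CR3, CD-CR1 or CD-CR6 (shifts of -1.10 to -0.95). CD-CR against CD-HR (-1.72, exact permutation p = 0.0519, adjusted 0.0831), CD-HR against HD-HR (-1.33, exact permutation p = 0.0866, adjusted 0.115), CD-CR against HD-CR (-0.92, adjusted 0.161 from an exact permutation) and HD-CR against CD-HR (-0.80, adjusted 0.327 from an exact permutation) did not pass. The last of these was -0.38 without CD-HR4 and -1.61 in prefix 13, and CD-CR against HD-CR was -0.61 without HD-CR1. Within prefix 13 the averaged recipient shift was -2.10 with 2 CKD recipients (exact permutation p = 0.0816, where 0.0204 is the smallest possible).

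**Figure D4:**
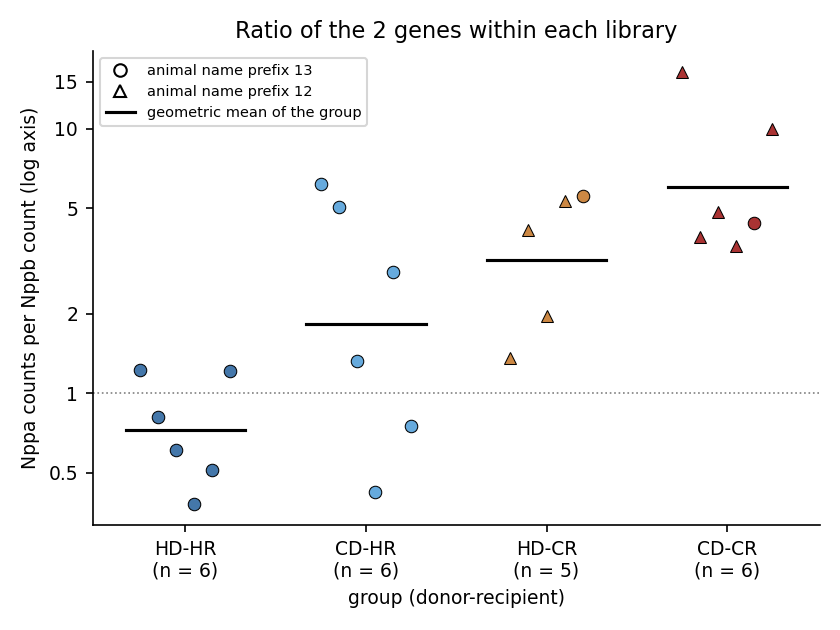
Nppa reads per Nppb read in each library, by group, on a log axis. Circles have the animal name prefix 13 and triangles 12, bars are geometric means, and the dotted line marks equal numbers of reads. HD-HR lies between 0.382 and 1.23, and all 11 CKD recipients lie above 1, from 1.36 to 16.3.

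No relation of the 2 genes to 4 measures of the libraries passed the adjustment over 8 relations when all 23 libraries were used. Pearson correlations with log2 CPM over the 23 libraries were 0.216 for Nppa and 0.370 for Nppb with the share of counts in the top 10 genes, -0.251 and -0.389 with the percentage of reads in no feature, -0.209 and -0.342 with non-unique alignments per counted read, and -0.0093 and 0.204 with the total count. The lowest adjusted p was 0.293 (permutation). The weak correlations with the share in the top 10 genes depended on CD-CR1 and HD-CR2, the 2 libraries farthest from its median. Without these 2 they were 0.629 for Nppa and 0.613 for Nppb. With the group means subtracted, and again without the 2 farthest libraries, they were 0.37 and 0.40. The correlations without these libraries were not tested. With that share as a covariate the recipient log2 fold changes were 2.55 for Nppa (adjusted p = 0.0111 by edgeR) and 0.87 for Nppb (adjusted p = 0.0341). Without CD-CR1 and HD-CR2 they were 2.45 (adjusted p = 0.0212) and 1.02 (adjusted p = 0.0364). The covariate fit kept these 2 libraries, and the fit without them had no share covariate. Neither fit therefore adjusts for the relation to the share seen in the other libraries.

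Among 11030 genes whose mean reached 1 CPM, 20 had a pattern over the 23 libraries more like that of Nppa than Nppb had. The files do not pair identifiers with names, so only the 2 closest to Nppa are given. ENSRNOG00000037645 had a Pearson correlation of 0.980 with Nppa, and its mean was 2.58 ± 1.15 CPM for HD-HR (SD, n = 6), 8.25 ± 7.33 for CD-HR (n = 6), 12.3 ± 5.46 for HD-CR (n = 5) and 18.4 ± 8.08 for CD-CR (n = 6). ENSRNOG00000013744 had 0.976, with means of 5.42 ± 1.74, 12.6 ± 8.96, 20.4 ± 7.45 and 26 ± 10.8 CPM in the same order. With the group means subtracted they were again the closest 2 to Nppa, at 0.948 for ENSRNOG00000013744 and 0.948 for ENSRNOG00000037645. For Nppb, Nppa itself was the second closest gene on the log2 CPM scale, 1 other gene having a higher correlation (0.902). With the group means subtracted, Nppa took rank 9 for Nppb, at 0.784 against 0.893 for the closest gene. On that scale Nppb took rank 27 for Nppa. These are descriptions of likeness over libraries that share groups and depth, and carry no test.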

How the data were processed

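Polyadenylated RNA of the heart apex was sequenced from directional libraries, per the labels' protocols, and the authors deposited unnormalized counts of reads for each gene. The submitters' processing notes name HTSeq 0.6.1p1, STAR 2.4.2a, Picard and the build Rnor_5.0. Annotation release and strand setting: not given in the sources used here. Whether antisense reads were counted for a gene therefore cannot be told. The 5 summary lines were left out: reads in no feature were 10.6 to 21.5% and ambiguous reads 0.872 to 1.97%. Counts are not molecules, and precision was taken from the spread between rats. No 2 libraries of a group agreed within sampling noise (lowest chi-square per degree of freedom 8.38).

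Groups came from the titles. Counts were filtered with filterByExpr (11568 genes kept), scaled by TMM and tested in 1 fit of all 23 libraries with edgeR 4.0.16 in R 4.3.3 (robust quasi-likelihood test), with Benjamini-Hochberg adjustment over all genes tested and a threshold of 0.05. The code was tested on simulated data in which genes varied less between rats than Nppa and Nppb did. That check therefore does not cover genes this variable. The SE is the size of the log2 fold change divided by the square root of F. Log2 CPM used a prior count of 2, the ratio of the 2 genes 0.5 counts added to each. DESeq2 1.42.0 and limma 3.58.1 served as alternatives, beside other scalings, filters, covariates and libraries left out. Alternatives without CD-CR1 and HD-CR2, and the ratio within a prefix, were chosen after seeing the data.

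The members, lists and comparisons were chosen with earlier results of these data known. Named genes were to be the 2 members, lists of natriuretic peptide processing, receptors, signalling and regulators, cell type markers, and the genes most like each member by correlation. The reference table holds 0 rat Ensembl identifiers, so no list could be matched, the tissue was not checked against markers, and 2 of the genes most alike are given. Protein sequences were not used here.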

Additional observations from a re-analysis of the deposited data

How the results depend on the processing

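The comparison of CKD with healthy recipients kept its direction for both genes in every setting run. It failed the threshold with the name prefix as a covariate (log2 2.73 for Nppa, 0.96 for Nppb), and so did CD-CR against HD-HR (4.74 and 1.54), which for Nppb also failed without any 1 of 5 libraries (HD-HR1, HD-HR4, HD-HR5, CD-CR2, CD-CR6). In prefix 13, where 1 library stands for each group of CKD recipients and a missed threshold is not informative, the values were 2.52 and 0.97 for the recipient and 3.66 and 1.30 for CD-CR against HD-HR. HD-CR against HD-HR passed for Nppa by DESeq2 (3.64), limma-voom (3.65) and in the 2 groups alone (3.63), and for Nppb by DESeq2 (1.46). DESeq2 also passed Nppa for donor CKD in healthy recipients (3.06) and averaged (1.97). CD-CR against HD-CR changed sign in prefix 13 (-0.78 for Nppa, -0.43 for Nppb).

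With 1 library left out, log2 fold changes were 3.34 to 3.89 for Nppa in HD-CR against HD-HR, 1.29 to 1.68 for Nppb in CD-CR against HD-HR, 0.29 to 1.33 for Nppa and 0.21 to 0.69 for Nppb in HD-CR against CD-HR, 0.21 to 0.77 for Nppb in CD-CR against CD-HR, and -0.16 to 0.23 for Nppb in CD-CR against HD-CR, which was below 0 without HD-CR1 or CD-CR2. The shift of the log2 ratio was -1.34 to -0.95 for the averaged donor, -1.15 to -0.38 for HD-CR against CD-HR, -2.07 to -1.30 for CD-CR against CD-HR (past the threshold without CD-HR1) and -1.75 to -0.98 for CD-HR against HD-HR (past it without CD-HR4). In prefix 13 it was -2.94 for HD-CR against HD-HR, -2.10 for the averaged recipient and -2.59 for CD-CR against HD-HR, none past the threshold; with 1 CKD recipient per donor kind the first and last cannot go below p = 0.143 (exact permutation). A pseudocount of 5 counts changed no call of the ratio. The cause of these changes was not tested.

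Replicate numbers are shared by the groups, but only 12 of 33 same-numbered pairs had a correlation of their deviations above 0.1 (mean 0.015), and 6 of 23 libraries correlated best with their own number. With a replicate block, Nppb passed for HD-CR against HD-HR (1.59) and was -0.035 for CD-CR against HD-CR. For Nppa the block gave 0.26 in place of 0.90 for CD-CR against HD-CR and 1.44 in place of 0.57 for HD-CR against CD-HR, neither past the threshold. The block gave 83 called genes in place of 71 for HD-CR against HD-HR and 1336 in place of 1483 for the averaged recipient.

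Over all genes, DESeq2 called 651 in place of 422 for CD-CR against HD-HR, 1016 in place of 614 for HD-CR against CD-HR, 259 in place of 71 for HD-CR against HD-HR, 449 in place of 181 for CD-CR against CD-HR, 36 in place of 3 for CD-CR against HD-CR, 7 in place of 0 for CD-HR against HD-HR, 226 in place of 0 for the averaged donor and 2 in place of 1 for the interaction. With the prefix as a covariate the counts were 0 for CD-CR against HD-HR, 269 for HD-CR against CD-HR, 0 for CD-CR against CD-HR, 3 for HD-CR against HD-HR and 6 for the averaged recipient.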
